A study of Mus musculus with 10 samples.

Results

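The comparison described here sets mouse embryonic stem cells without Argonaute 1 and Argonaute 2 (Ago12_KO) directly against cells without Dgcr8 (Dgcr8_KO), over every mature miRNA of the count table. Its members are 4 of the 10 small RNA libraries of the series, 2 for each mutant, and were chosen by their column names. Both mutants are knockout stem cells of the 129/Ola strain background, and like WT they were kept on gelatine in medium with 15% serum and 100 U/mL LIF, a cytokine that holds stem cells undifferentiated. The 2 wild-type libraries (WT, from E14 cells by their description) serve as a reference for levels. Apart from 1 view of arm shares, the Drosha_KO and Dicer_KO libraries enter only the estimate of spread and the choice of entries tested. Nothing in the labels says whether the 2 libraries of a mutant came from separate clones or cultures. The p-values measure the spread between libraries of the same group, over all groups fitted and not the mutants compared alone, and that spread may be technical. The date-like codes in the labels differ between Dgcr8_KO and Ago12_KO, and what those codes stand for cannot be told apart from the mutation.

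In the main pathway of miRNA synthesis, the Microprocessor, which is the RNase Drosha with its RNA-binding partner Dgcr8, cuts a hairpin out of the primary transcript in the nucleus. Dicer then removes the loop in the cytoplasm, and an Argonaute protein takes up the duplex, keeps one of its strands and is known to protect it from decay. Some small RNAs avoid the first cut. Mirtrons are short introns that the splicing machinery releases as ready hairpins, and capped hairpins such as the miR-320 precursor begin at the start of transcription. The contrast therefore separates miRNAs by whether they were scarcer without the Microprocessor subunit or without this pair of Argonautes, as shares of the counts in each library. No spike-in or absolute amount was used here, so a higher share does not say that a miRNA had more copies per cell.

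The sequences that the results turn on are from RefSeq (GRCm38.p6), 5′ to 3′. A first set shows hairpins that fill a whole intron, with the GU at the start and the AG at the end in capitals, the letters that mark intron ends. These are the hairpins of miR-877 in Abcf1 (chr17:35960730-35960814, minus strand), miR-6944 in Dbn1 (chr13:55477681-55477776, minus strand) and miR-1981 in Marc2 (chr1:184822407-184822488, minus strand).
miR-877 hairpin: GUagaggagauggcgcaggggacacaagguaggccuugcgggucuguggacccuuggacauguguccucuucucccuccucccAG
miR-6944 hairpin: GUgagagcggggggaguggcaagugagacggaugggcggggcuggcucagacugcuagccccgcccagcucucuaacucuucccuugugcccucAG
miR-1981 hairpin: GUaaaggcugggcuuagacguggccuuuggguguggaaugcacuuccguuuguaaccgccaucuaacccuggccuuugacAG

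A second set shows both arms of hairpins whose arm balance differed between the mutants, with the seed (bases 2 to 8, which pair with targets) in capitals. The miR-92a arms come from the miR-92a-1 hairpin in an exon of Mir17hg (chr14:115044427-115044506, plus strand), and miR-92a-3p also from a copy on chromosome X. The others are miR-27b in an exon of 2010111I01Rik (chr13:63300712-63300784, plus strand) and miR-21a in an exon of Vmp1 (chr11:86584067-86584158, minus strand).
miR-92a-1-5p: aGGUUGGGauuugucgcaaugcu
miR-92a-3p: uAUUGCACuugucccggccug
miR-27b-5p: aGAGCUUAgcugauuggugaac
miR-27b-3p: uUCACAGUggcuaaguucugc
miR-21a-5p: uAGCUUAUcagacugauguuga
miR-21a-3p: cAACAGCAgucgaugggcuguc

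A further set shows miRNAs that share their seed but differed in opposite directions between the mutants: the AGUGCAA seed of miR-130b and miR-301a, the ACAUUCA seed of miR-181c and miR-181d, and the AAAGUGC seed of miR-17 and miR-20a.
miR-130b-3p: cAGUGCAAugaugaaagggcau
miR-301a-3p: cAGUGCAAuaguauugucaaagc
miR-181c-5p: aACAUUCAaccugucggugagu
miR-181d-5p: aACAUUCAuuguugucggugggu
miR-17-5p: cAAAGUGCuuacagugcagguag
miR-20a-5p: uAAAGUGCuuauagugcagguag

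The 2 mutants had similar totals of miRNA counts, with 289539 and 408654 in Dgcr8_KO and 349312 and 229407 in Ago12_KO, against 2357868 and 1943868 in WT. These are sums over miRNA entries and not totals of reads sequenced. A floor of 3 counts over a group equals 4.3 CPM (counts scaled to a common library total of 1000000) in Dgcr8_KO and 5.18 CPM in Ago12_KO; floors and intervals cover counting error only. Replicates differed beyond sampling noise, with chi-square values, divided by their degrees of freedom, of 3.88 between the Dgcr8_KO libraries and 63.9 between the Ago12_KO libraries. The table holds no mRNA, so the deleted genes could not be checked; 2 hairpins lie in the Dgcr8 transcript itself (miR-1306 and miR-3618), and they had 4 counts in Dgcr8_KO and 8 in Ago12_KO. The stem cell miRNAs miR-290 to miR-295 made up 11.5 to 16.4% of the counts in the 4 libraries.

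Of 1907 entries, 1048 had a count in the 4 libraries. The low-count filter left 412 on the 4 compared libraries alone and 481 over all 10 libraries, and these 481 were tested. In Ago12_KO, 220 entries (45.7%) were higher than in Dgcr8_KO, 153 (31.8%) were lower, and 108 were not called at an edgeR adjusted p under 0.05; 77.5% were called in either direction. Any count of a group below is to be read against these shares. The median log2 fold change was 0.83 over all tested entries, so the middle of the distribution was not at 0. Scaling with TMM factors moved that median by -0.34 to 0.49. In every called entry, both libraries of a mutant lay on 1 side of both libraries of the other. That largely follows from the call itself, and with 2 libraries against 2 it has a probability of 0.333 by chance, so it is no separate support.

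**Figure D1:**
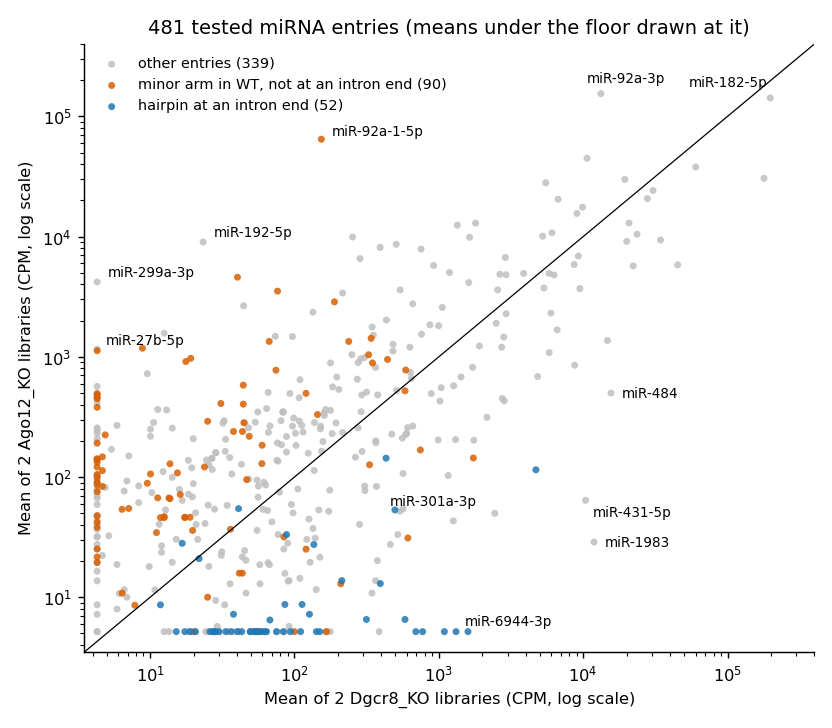
Mean level of each of the 481 tested entries in Dgcr8_KO (x axis, CPM) and Ago12_KO (y axis, CPM), both on log scales; each point is an entry, the line marks equal levels, and means under the floor of 3 counts per group are drawn at 4.3 and 5.18 CPM. The 52 entries from hairpins at an intron end lie mostly along the lower edge, and arms that are minor in WT lie mostly above the line.

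The clearest group on the Dgcr8_KO side was made of hairpins at intron ends. A hairpin was placed there when its end lay within 10 bases of a splice site of a same-strand gene in GENCODE. All 17 tested entries from hairpins that fill a whole intron were lower in Ago12_KO, with a median log2 fold change of -7.54, or -4.96 where entries without counts are set to their bound. Another 28 of 32 entries from hairpins at the 3′ end of a longer intron were lower, and so were 2 of 3 at the 5′ end. None of these 52 entries was higher by edgeR, also at an unadjusted p under 0.05 (0 entries), and by DESeq2 0 of those from whole introns and 3′ intron ends were higher.

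The share of all counts from the 491 listed entries at intron ends was 1.65% and 1.63% in Dgcr8_KO, 0.0538% and 0.0798% in Ago12_KO, and 0.227% and 0.265% in WT. Both Dgcr8_KO libraries were thus above WT and both Ago12_KO libraries below it. Of the 52 tested entries, 22 reached the CPM minimum in Dgcr8_KO but not in Ago12_KO or WT, so they entered the test through the group where they were high. Without that filter, 286 of the 491 entries had a count in the 4 libraries and 277 of them had the higher pooled CPM in Dgcr8_KO, against 561 of 1048 over the whole table. Among entries that reached the minimum in WT, 9 of 12 at intron ends were lower and 0 were higher by edgeR. These were 7 of 7 from whole introns, 2 of 3 at 5′ ends and 0 of 2 at 3′ ends. Of the 32 tested at 3′ ends, 15 reached the minimum in Dgcr8_KO but not in Ago12_KO or WT. The entries that reached it in WT thus give no call for 3′ intron ends. Fitting the 2 mutants alone left 19 entries at 3′ intron ends in the test, of which 18 were lower, and applying no filter gave 54 lower of 282.

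Members of this group show the size of the difference. The 3′ arm of miR-6944, in an intron of the actin-binding protein gene Dbn1, had 1392 and 1241 CPM in Dgcr8_KO and 0 and 0 CPM in Ago12_KO, so it was at least 251-fold lower in Ago12_KO (edgeR adjusted p = 5.83e-06). No read of it was counted in either Ago12_KO library, while WT held 384 and 505 CPM. For miR-702-3p, which fills an intron of the collagen-modifying enzyme gene Plod3, the levels were 1644 and 1542 CPM in Dgcr8_KO and 0 and 4.36 CPM in Ago12_KO. The Ago12_KO value rests on 1 count, and the ratio of pooled levels was 917 (95% interval 164 to 36240.0). The most abundant mirtron product, miR-877-5p from the ribosome biogenesis and translation factor gene Abcf1, had 4642 and 4769 CPM in Dgcr8_KO and 77.3 and 153 CPM in Ago12_KO (edgeR log2 fold change -5.38 with an SE of 0.41, adjusted p = 1.51e-06). Its WT libraries, at 215 and 271 CPM, lay between the mutants.

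The mirtron list, taken from reported mirtrons rather than from positions, lay on the same side. All 9 tested members were lower, of which 3 reached the CPM minimum in Dgcr8_KO only and 5 reached it in WT, and the list held 0.924% and 0.918% of the counts in Dgcr8_KO against 0.0155% and 0.0262% in Ago12_KO. Both arms of miR-1981 belonged to it, with 832 and 712 against 5.73 and 0 CPM for the 5p arm. miR-1981-3p had 670.0 and 717 against 0 and 8.72 CPM. Entries numbered miR-6896 to miR-7094, a block of late miRBase additions with many intron-end hairpins, were lower in 30 of 32 tested cases and higher in 0 by edgeR, also at an unadjusted p under 0.05. Of these 32, 18 reached the CPM minimum in Dgcr8_KO only and 2 reached it in WT, both lower; with no filter, 56 of 270 were lower. In sequence, 7 of the 10 whole-intron hairpins found in RefSeq began with GU and ended with AG, as did 30 of all 1005 RefSeq hairpins (2.99%). Of the 26 hairpins at 3′ intron ends, 23 ended with AG (88.5%), against 23.7% of all hairpins. These hairpins were chosen by their distance to splice sites, so such ends largely follow from the choice and only describe the groups. Mature products of whole-intron hairpins had a median GC content of 60.9%, against 47.8% over tested entries; the part of base composition in the difference was not tested.

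Hairpins reported to bypass the Microprocessor in other ways were also scarcer in Ago12_KO, in 4 of 5 tested entries, with 1 higher. The list held 2.55% and 2.37% of the counts in Dgcr8_KO against 0.147% and 0.131% in Ago12_KO and 0.136% and 0.158% in WT. miR-484, from a capped hairpin (chr16:14159626-14159692, plus strand), had 16281 and 14915 CPM in Dgcr8_KO and 398 and 602 CPM in Ago12_KO (edgeR log2 fold change -4.97 with an SE of 0.36, adjusted p = 1.33e-06). The Dgcr8_KO libraries exceeded those of WT, at 1031 and 1196 CPM, and those of WT exceeded those of Ago12_KO. miR-320-3p had 8945 and 8533 CPM in Dgcr8_KO and 1036 and 667 CPM in Ago12_KO (edgeR log2 fold change -3.36 with an SE of 0.43, adjusted p = 5.61e-05). Its other arm, miR-320-5p, was the member called higher, but at 0 and 4.89 against 17.2 and 21.8 CPM, and leaving out Dgcr8_KO library 1 or either Ago12_KO library removed that call. miR-344-3p, from a tandem hairpin family, stood at 166 and 117 against 5.73 and 17.4 CPM. miR-451, whose hairpin is cut by Argonaute 2 in place of Dicer, was at or below the floor of 3 counts per library, with 2 counts in 1 Dgcr8_KO library and none in the other 3, so nothing can be said of it at this depth.

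Small RNAs from other RNA classes showed the same side more often than the other. In snoRNA genes, 16 of 22 tested entries were lower in Ago12_KO and 1 was higher, and 19 of 24 with counts had the higher pooled CPM in Dgcr8_KO; 11 of the 22 reached the CPM minimum in Dgcr8_KO only. miR-1839-5p had 1243 and 1277 CPM in Dgcr8_KO and 51.5 and 34.9 CPM in Ago12_KO (edgeR log2 fold change -4.83 with an SE of 0.39, adjusted p = 2.25e-06). miR-3068-3p had 1236 and 1378 against 157 and 253 CPM. The exception, miR-3535 with 801 and 717 against 1359.8 and 1726 CPM, was not called without Dgcr8_KO library 1, without Dgcr8_KO library 2 or without Ago12_KO library 2, nor with TMM factors. Of 4 entries reported to overlap tRNA or rRNA, 3 were lower. miR-1983, which overlaps a tRNA, had 12209 and 11579.5 CPM in Dgcr8_KO and 31.5 and 26.2 CPM in Ago12_KO (edgeR log2 fold change -8.66 with an SE of 0.40, adjusted p = 1.10e-07). The list reported as snoRNA-derived had 4 lower and 1 higher of 6, but 4 of the 6 reached the CPM minimum in Dgcr8_KO only, and the 2 that reached it in WT split into 1 higher and 1 lower. The rRNA-overlapping miR-6240 had 5847 and 5760.4 against 4784 and 5113 CPM and was not called.

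On the Ago12_KO side, the leading feature was the arm. For each hairpin, the minor arm was defined as the one with at least 4-fold fewer counts in WT. For arm classes, shares and ratios, copies that share a name, such as miR-92a-1 and miR-92a-2, were summed and treated as a single hairpin. In the canonical pathway it is the strand that Argonaute usually discards, often called the passenger strand. Among tested entries, 67 of 93 minor arms were higher in Ago12_KO and 13 were lower (median log2 fold change 2.65), against 86 higher and 68 lower of 208 major arms (median 0.48). With TMM factors the major arms split into 74 higher and 78 lower, while the minor arms stayed at 64 higher and 14 lower. Of the 93 minor arms, 26 reached the CPM minimum in Ago12_KO only; of the 44 that reached it in WT, 35 were higher and 6 lower.

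Summed over 255 hairpins with a clear minor arm, the share of counts on that arm was 1.28% in both Dgcr8_KO libraries (95% Clopper-Pearson intervals 1.24 to 1.33% and 1.24 to 1.32%), below the 1.59% and 1.73% of WT. In Ago12_KO it was 17.4% (17.3 to 17.6%) and 7.93% (7.81 to 8.06%). The spread between the Ago12_KO libraries came largely from 1 hairpin: without miR-92a, the shares were 6.68% and 5.81% in Ago12_KO and 1.28% and 1.29% in Dgcr8_KO. The 2 groups did not overlap with or without it. An exact permutation test of 2 libraries against 2 cannot give a p below 0.333, so these shares are a description. Dicer_KO, a mutant not otherwise compared here, had 10.6% and 9.67%, and Drosha_KO had 2.85% and 2.12%.

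The balance between arms was tested within each hairpin, with copies of the same name summed. This cancels the total level of a hairpin with a single locus. Where several loci were summed, as for miR-92a, a change in their mix can also move the ratio. Here the direction is given by which arm had fewer counts in WT, by any margin. Of 74 hairpins with enough counts, 49 changed toward the arm with fewer WT counts (66.2%) and 5 toward the other arm (6.76%) in Ago12_KO against Dgcr8_KO at a limma adjusted p under 0.05, and 73.0% were called in all. Among the 48 hairpins with a minor arm by the 4-fold definition, the counts were 39 and 2, and among the 26 balanced ones they were 10 and 3. In simulated data, where every hairpin and group had the same noise, the same test called 8.2% of unchanged hairpins, with no split by direction. In the real counts, the Ago12_KO libraries differed from each other more than the Dgcr8_KO libraries did, so the false rate there may differ. The 6.76% is instead a share of all 74 hairpins and counts only changes toward the arm with more WT counts. These shares therefore cannot be compared directly, and whether the 5 hairpins exceed false calls was not tested. The main filter on counts in the mutants can favour hairpins whose minor arm is high in Ago12_KO only. Choosing hairpins by their WT counts instead gave 151 hairpins, with 64 toward the arm with fewer and 16 toward the arm with more WT counts. With the main filter, the number toward the arm with more WT counts also depended on which libraries were fitted.

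**Figure D2:**
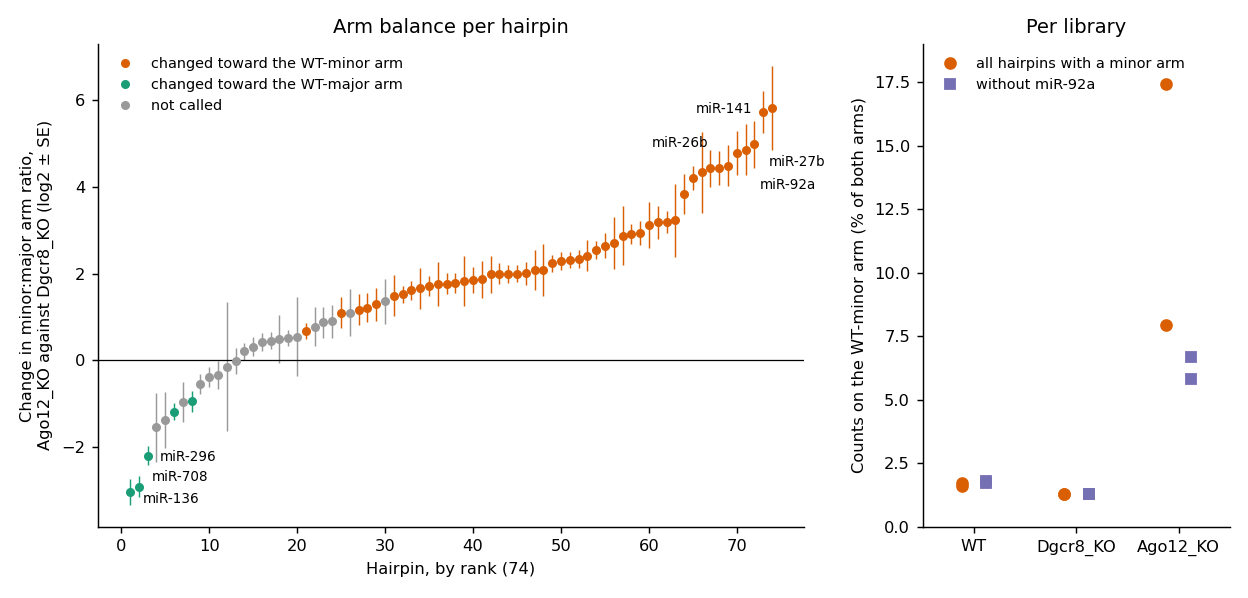
Left, change in the ratio of the arm with fewer to the arm with more WT counts (minor and major in the key) between Ago12_KO and Dgcr8_KO for 74 hairpins in rank order (log2, bars are the SE), with 49 called toward the former and 5 toward the latter. Right, the share of counts on the minor arm in each library (1 point per library), for 255 hairpins and without miR-92a; both Ago12_KO points lie above all WT and Dgcr8_KO points either way.

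Both arms of miR-92a, printed above, were high in Ago12_KO. miR-92a-3p, a product of the growth-promoting miR-17-92 cluster, had 13166 and 13363 CPM in Dgcr8_KO and 173352 and 135467 CPM in Ago12_KO (edgeR log2 fold change 3.54 with an SE of 0.23, adjusted p = 8.70e-07), and WT stood near the latter. Its partner miR-92a-1-5p had 173 and 135 CPM in Dgcr8_KO and 103240.0 and 25784 CPM in Ago12_KO, above the 1511 and 2453 CPM of WT in both Ago12_KO libraries (edgeR log2 fold change 8.72 with an SE of 0.84, adjusted p = 6.59e-06). The Ago12_KO libraries differed from each other more in this arm than in the 3p arm. With the miR-92a-1 and miR-92a-2 copies summed, the 5p arm took 1.29% and 0.997% in Dgcr8_KO and 37.4% and 16% in Ago12_KO. This was a change of 4.86 ± 0.60 (SE, limma adjusted p = 0.0014) in the log2 ratio of minor to major arm.

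In miR-27b, which like its neighbours in the miR-23/27/24 clusters is common in many tissues, the 5p arm had no count in Dgcr8_KO. miR-27b-5p had 0 and 0 CPM in Dgcr8_KO and 1523 and 728 CPM in Ago12_KO, so it was at least 281-fold higher in Ago12_KO (edgeR adjusted p = 1.16e-05), and the major arm miR-27b-3p had 266 and 303 against 5926 and 7197 CPM. Both arms were therefore higher, the minor one by more. In miR-27a, the 5p arm took 0% and 1.35% in Dgcr8_KO and 39.9% and 40.8% in Ago12_KO, a change of 5.73 ± 0.48 (SE; limma adjusted p = 7.17e-04). miR-21a, abundant in proliferating cells, behaved alike on its other arm: miR-21a-3p had 41.4 and 39.2 CPM in Dgcr8_KO and 4898 and 4294 CPM in Ago12_KO (edgeR log2 fold change 6.83 with an SE of 0.45, adjusted p = 8.70e-07). The major arm miR-21a-5p was also higher, at 1647 and 1620.0 against 8230.5 and 11512 CPM. WT levels of miR-21a-3p were 115 and 102 CPM, far below both Ago12_KO libraries.

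An arm shift also appeared in miR-182, where the major arm itself was not called. miR-182-5p, a sensory-lineage miRNA that is among the most abundant in these stem cells, had 193345 and 201596 CPM in Dgcr8_KO and 115347 and 169123 CPM in Ago12_KO (edgeR log2 fold change -0.47 with an SE of 0.23, adjusted p = 0.0829) and was not called, but it was called lower with TMM factors, with only the 2 mutants fitted and without Ago12_KO library 2. miR-182-3p had 82.9 and 66.1 against 907 and 641 CPM, and the ratio moved toward the minor arm by 3.84 ± 0.46 (SE; limma adjusted p = 0.00134). In miR-26b, whose major arm miR-26b-5p was called higher, the 3p arm took 2.48% and 1.57% in Dgcr8_KO and 24.8% and 42.2% in Ago12_KO, a change of 4.49 ± 0.46 (SE; limma adjusted p = 9.27e-04). For miR-141, an epithelial miRNA of the miR-200 family, the major arm miR-141-3p was also called higher, and the 5p arm took 3.7% and 0% in Dgcr8_KO and 42.9% and 73.2% in Ago12_KO, with 26 and 44 counts on the 3p arm of the Dgcr8_KO libraries. Of the miR-30 family, 5 hairpins (miR-30a, miR-30b, miR-30c, miR-30d and miR-30e) were called toward the minor arm. Their major 5p arms were called higher in miR-30b, miR-30c and miR-30e, lower in miR-30a, and not called in miR-30d.

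The 5 hairpins called toward the arm with more WT counts were miR-136 and miR-1839, which have a minor arm by the 4-fold definition, and miR-708, miR-296 and miR-293, which are balanced in WT. For miR-1839, the minor arm had 1 count in all in Ago12_KO. miR-136-5p, the minor arm of a Dlk1-Dio3 hairpin, took 24.8% and 24.2% in Dgcr8_KO and 4.81% and 2.91% in Ago12_KO. Its WT share was 13.1% and 13.9%, between the mutants. The mirtron miR-702 was called toward the minor arm, but its arms held 1 count in all in Ago12_KO. Argonaute is known to favour strands that begin with U. Of entries with a RefSeq sequence, 60% of major arms and 13.3% of minor arms began with U. Entries higher and lower in Ago12_KO were alike in this respect, with 41.9% and 45.6% beginning with U.

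Among canonical families, the related clusters of miR-17, miR-25 and miR-363 (miR-17-92 and its paralogous clusters), which promote proliferation, stood out. They held 2.14% and 2.07% of the counts in Dgcr8_KO and 29.5% and 17.7% in Ago12_KO. Most of the Ago12_KO share was miR-92a, with 17.34% and 13.55% on miR-92a-3p and 10.32% and 2.578% on miR-92a-1-5p. By arms, 19 of 26 tested were higher and 3 lower. Of the 23 that reached the CPM minimum in WT, 16 were higher and 3 lower. Apart from miR-92a, miR-25-3p had 401 and 384 against 8843 and 7437 CPM, miR-19b-3p had 397 and 294 against 2296 and 1247 CPM, and miR-363-3p had 13.8 and 12.2 against 335 and 388 CPM. These were all higher in both Ago12_KO libraries. miR-17-5p, miR-17-3p and miR-106b-5p went the other way. The levels of miR-17-5p were 2856 and 2645 CPM in Dgcr8_KO and 444 and 458 CPM in Ago12_KO (edgeR log2 fold change -2.61 with an SE of 0.32, adjusted p = 4.14e-05), although its hairpin lies 402 bases from that of miR-20a-5p, which had 197 and 159 against 890.3 and 889 CPM.

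**Figure D3:**
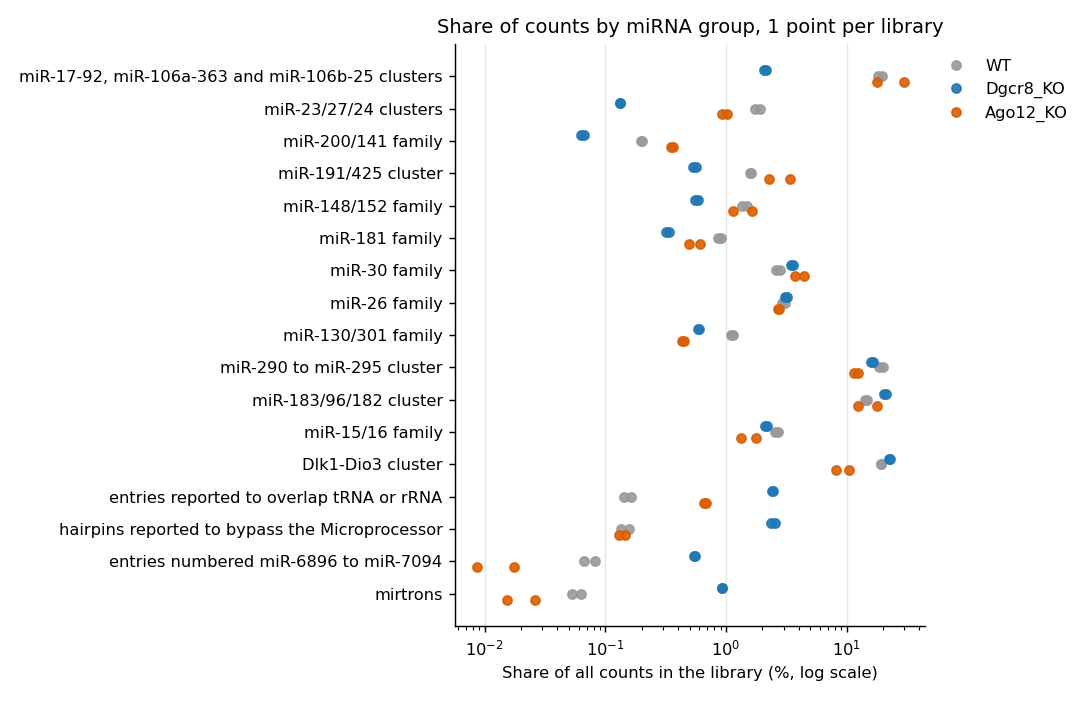
Share of all counts of a library taken by each of 17 miRNA groups (x axis, %, log scale), with 1 point per library for WT, Dgcr8_KO and Ago12_KO, ordered by the ratio of Ago12_KO to Dgcr8_KO. The miR-17-92 group is at the top, with 2.14% and 2.07% in Dgcr8_KO against 29.5% and 17.7% in Ago12_KO, and mirtrons are at the bottom, with 0.924% and 0.918% against 0.0155% and 0.0262%. Most of the Ago12_KO share of the miR-17-92 group was miR-92a.

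Other families also had more higher than lower arms. Some of these arms reached the CPM minimum in Ago12_KO, where they were high, but not in Dgcr8_KO or WT, and are given as passing through Ago12_KO only. The miR-23/27/24 clusters had 7 higher and 1 lower of 9, or 6 and 1 of the 8 that reached the CPM minimum in WT. The family of miR-200 and miR-141, which marks epithelial cells, had 7 and 1 of 8, of which 3 passed through Ago12_KO only, and 4 and 1 of the 5 that reached it in WT. The miR-181 family had 5 and 1 of 6, of which 2 passed through Ago12_KO only, and 2 and 1 of the 3 that reached it in WT. The miR-15/16 family, which restrains the cell cycle, had 10 higher and 2 lower of 12, of which 5 passed through Ago12_KO only, and 5 and 2 of the 7 that reached the minimum in WT. Its share of counts was lower in Ago12_KO, at 1.77% and 1.32% against 2.20% and 2.10% in Dgcr8_KO. Most of that share was miR-16-5p, with 21248 and 20289 CPM in Dgcr8_KO and 14975 and 10967 CPM in Ago12_KO, whose call as lower was lost when either Dgcr8_KO library, Ago12_KO library 2 or either WT library was left out. Its family partners miR-15b-5p and miR-15a-5p had no count in Dgcr8_KO and 263 and 231 CPM and 169 and 109 CPM in Ago12_KO, so they were at least 58.3-fold and at least 33.8-fold higher.

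All 3 tested arms of miR-191 and miR-425, which share a transcript, were higher. miR-191-5p had 5671 and 5347 CPM in Dgcr8_KO and 22636 and 33425 CPM in Ago12_KO (edgeR log2 fold change 2.35 with an SE of 0.30, adjusted p = 5.61e-05), and miR-425-5p had no count in Dgcr8_KO. Of the family of miR-148 and miR-152, 5 of 5 tested arms were higher, or 3 of 5 with TMM factors and 3 of 5 without any 1 of Dgcr8_KO library 1, Dgcr8_KO library 2 and Ago12_KO library 2. miR-148a-5p, the minor arm, had 183 and 196 against 2053 and 3679 CPM. Of 11 tested miR-30 arms 8 were higher and 1 was lower, that being miR-30a-5p with 19559 and 20550.4 against 7148 and 11133 CPM. The families of miR-10, miR-99, miR-100 and miR-125 had 5 higher and 2 lower of 7, or 3 higher without Dgcr8_KO library 1: miR-10b-5p had 104 and 115 against 392 and 898 CPM, while miR-10a-5p had 591 and 541 against 17.2 and 91.5 CPM. The miR-26 family had 3 higher of 4, the family of miR-130 and miR-301 3 higher and 2 lower of 6, and the cluster of miR-183, miR-96 and miR-182 3 higher and 1 lower of 6, or 3 lower with TMM factors. For let-7, which rises with differentiation, 2 were higher and 2 lower of 10, and let-7f-5p had 1806 and 269 against 432 and 676 CPM, so the Ago12_KO libraries lay between those of Dgcr8_KO. The repeat families of miR-297, miR-466, miR-467 and miR-669, mostly from the Sfmbt2 intron, had 27 higher and 5 lower of 44, and 13 higher and 3 lower of the 23 that reached the minimum in WT. Their median log2 fold change was 1.993, or 1.265 without Ago12_KO library 1. Near-identical copies share reads, so single values are uncertain. Counts of miR-467a-5p were 1840 and 2290 in Dgcr8_KO and 1050 and 370 in Ago12_KO, all multiples of 10, as were those of miR-467a-3p. If each read was counted at every copy, the levels, shares and number of calls in these families are inflated. Whether it was is not given in the sources used here.

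miRNAs with a shared seed did not move as blocks. In the AGUGCAA group, miR-301a-3p, from an intron of Ska2, had 2383 and 2503 CPM in Dgcr8_KO and 34.4 and 65.4 CPM in Ago12_KO (edgeR log2 fold change -5.65 with an SE of 0.40, adjusted p = 1.08e-06). miR-130b-3p had 10.4 and 14.7 CPM in Dgcr8_KO and 1761 and 1391 CPM in Ago12_KO (edgeR log2 fold change 6.92 with an SE of 0.58, adjusted p = 2.82e-06). The 2 thus differed in opposite directions by more than any spread between replicates, and miR-130a-3p, of the same seed, was not called at 2998 and 2858 against 2004 and 2559 CPM. In the ACAUUCA group, miR-181c-5p was lower at 2673 and 2775 against 1105 and 1303 CPM, whereas miR-181d-5p was higher at 0 and 7.34 against 1148 and 1164 CPM, with 3 counts in Dgcr8_KO and a ratio of 269 (95% interval 91.5 to 1306). miR-181a-5p had 111 and 83.2 against 1071 and 1874 CPM and miR-181b-5p 6.91 and 4.89 against 238 and 300.8 CPM. Among the 6 tested miRNAs with the AAAGUGC seed, 2 were higher, 2 lower and 2 not called. For the AUUGCAC seed, 4 of 5 were higher (miR-25-3p, miR-92a-3p, miR-92b-3p and miR-363-3p) and 0 lower by edgeR, with 1 lower at an unadjusted p under 0.05 (miR-32-5p, 24.2 and 34.3 against 11.5 and 0 CPM).

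**Figure D4:**
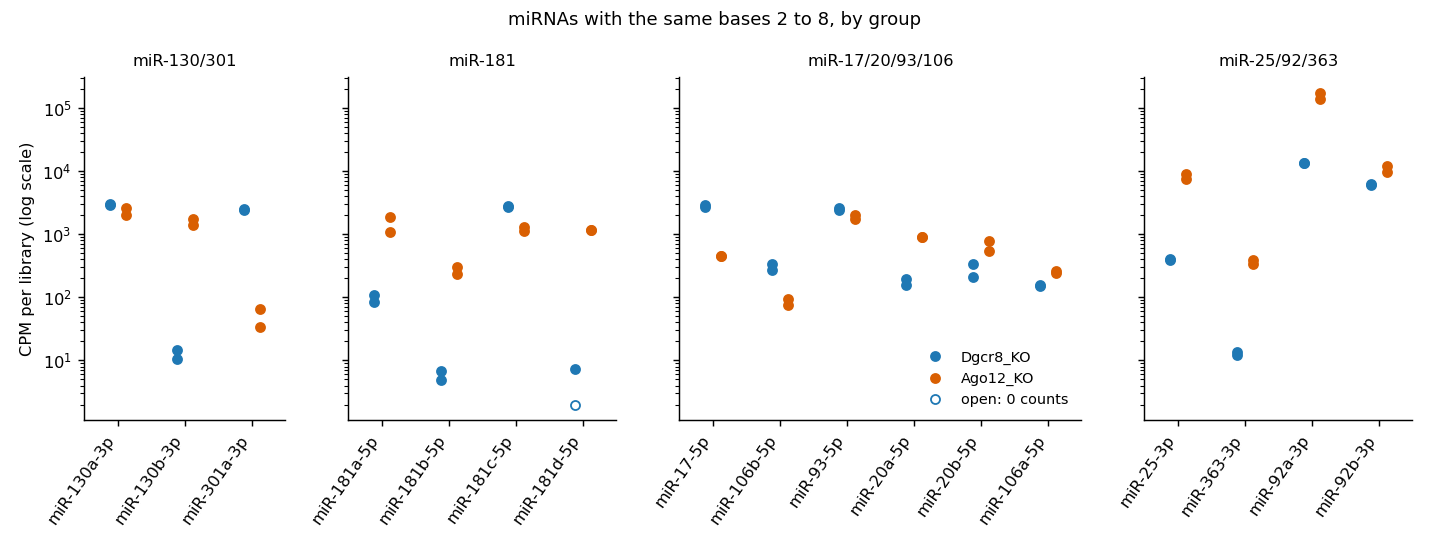
Level of single miRNAs in each Dgcr8_KO and Ago12_KO library (CPM, log scale, 1 point per library; open points mark 0 counts), in 4 groups that share bases 2 to 8. miR-130b-3p and miR-301a-3p, and miR-181d-5p and miR-181c-5p, differ in opposite directions, while the 4 miRNAs drawn for the group of miR-25, miR-92 and miR-363 are all higher in Ago12_KO. The group's further tested member, miR-32-5p, is not drawn and had lower levels in Ago12_KO.

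Hairpins next to each other on 1 transcript could also part. miR-301b lies 257 bases from miR-130b in an intron of 2610318N02Rik (chr16:17124400-17124496, minus strand, and chr16:17124061-17124142, minus strand). miR-301b-3p had 556 and 485 CPM in Dgcr8_KO and 22.9 and 43.6 CPM in Ago12_KO (edgeR log2 fold change -4.02 with an SE of 0.41, adjusted p = 1.16e-05), opposite to miR-130b-3p. WT held both, at 776 and 787 CPM for miR-301b-3p and 2963 and 3200.3 CPM for miR-130b-3p. miR-181c and miR-181d lie 85 bases apart in an intron of Nanos3, and miR-497a and miR-195a 241 bases apart: miR-497a-5p was lower at 487 and 458 against 189 and 266 CPM, and miR-195a-5p higher at 10.4 and 12.2 against 415 and 314 CPM. In the miR-200b cluster, miR-200b-3p was higher at 69.1 and 78.3 against 1755 and 1207 CPM and miR-429-3p lower at 414 and 325 against 88.7 and 78.5 CPM. In all, 68 pairs of tested hairpins lay within 1000 bases of each other on 1 strand. Only arms with a single genomic locus were used, and of these the one with more WT counts, and both partners were called in 42 pairs. Of these, 25 pairs were both higher, 4 both lower, and 13 opposite, where 45.7% of all tested entries were higher and 31.8% lower. Where the main arm has several loci, the other arm stood in. Thus miR-16-1-3p, miR-16-2-3p and the 5p arms of miR-24 entered as higher, although miR-16-5p and miR-24-3p were called lower. The count of opposite pairs depends on this choice.

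The miR-290 to miR-295 cluster, the main miRNA cluster of mouse embryonic stem cells, held 16.4% and 16% of the counts in Dgcr8_KO, 12.5% and 11.5% in Ago12_KO, and 18.5% and 19.8% in WT. Its 14 tested arms split into 5 higher, 6 lower and 3 not called; with TMM factors they split into 3 higher and 7 lower, and into 3 higher and 4 lower without Dgcr8_KO library 1 and likewise without library 2. The exception in size was miR-293. Its 5p arm had 224 and 281 CPM in Dgcr8_KO and 9049 and 10802 CPM in Ago12_KO (edgeR log2 fold change 5.29 with an SE of 0.35, adjusted p = 8.70e-07) and its 3p arm 124 and 144 against 2007 and 2698 CPM. In WT these were 10315 and 11137 CPM and 9743 and 10455 CPM, so the Dgcr8_KO libraries lay far below both other groups. Its neighbour miR-294-3p, which carries the cell cycle-promoting AAGUGCU seed, had 21772 and 22672 CPM in Dgcr8_KO and 6338 and 5078 CPM in Ago12_KO (edgeR log2 fold change -1.96 with an SE of 0.33, adjusted p = 3.58e-04). The first hairpin gave miR-290a-5p with 2186 and 2129 against 309 and 318 CPM, and miR-291a-5p had 35000.5 and 33742 against 9633 and 9093 CPM. For miR-295-3p the difference was small (61584 and 58680.4 against 42026 and 33752 CPM, edgeR log2 fold change -0.67 with an SE of 0.24, adjusted p = 0.024), and the call was lost without Dgcr8_KO library 1, Dgcr8_KO library 2 or Ago12_KO library 2. The related miR-302 and miR-367 cluster of primed cells was sparse, with miR-302d-3p at 3.45 and 2.45 against 94.5 and 87.2 CPM.

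The imprinted Dlk1-Dio3 cluster on chromosome 12, expressed from the maternal allele, held 22.2% and 22.7% of the counts in Dgcr8_KO and 8.08% and 10.5% in Ago12_KO, yet more of its 63 tested arms were higher (28) than lower (15). The hairpins antisense to Rtl1 carried that share, with 19.8% and 20.3% in Dgcr8_KO against 3.83% and 4.10% in Ago12_KO; the rest of the cluster held 2.40% and 2.34% against 4.25% and 6.37%. Antisense to Rtl1, of 9 tested arms 1 was higher and 4 were lower. miR-431-5p (chr12:109590447-109590537, plus strand) had 10648 and 10138 CPM in Dgcr8_KO and 71.6 and 56.7 CPM in Ago12_KO (edgeR log2 fold change -7.32 with an SE of 1.34, adjusted p = 5.96e-04). miR-136-5p had 1803 and 1669 against 157 and 131 CPM. In contrast miR-434-5p, the arm called higher, had 221 and 254 against 1225 and 1460.3 CPM. The most abundant member, miR-127-3p, had 176394 and 181594 CPM in Dgcr8_KO and 30374 and 30684 CPM in Ago12_KO, the second highest level in Dgcr8_KO. It was not called (edgeR log2 fold change -2.55 with an SE of 1.44, adjusted p = 0.123), but was called lower when only the 2 mutants, the mutants and WT, or all libraries but 1 Drosha_KO library were fitted.

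In the rest of the cluster, 27 of 54 tested arms were higher and 11 lower, or 7 lower without Dgcr8_KO library 2 and 6 lower without Ago12_KO library 1. miR-134-5p, a neuronal miRNA, had 0 and 0 CPM in Dgcr8_KO and 615 and 519 CPM in Ago12_KO, so it was at least 134-fold higher in Ago12_KO (edgeR adjusted p = 2.38e-06). miR-299a-3p had 3.45 and 2.45 CPM in Dgcr8_KO and 3286 and 5096 CPM in Ago12_KO, from 2 counts in Dgcr8_KO, a ratio of 1398 (95% interval 386 to 11550.0). Both Ago12_KO libraries were also above WT, at 282 and 253 CPM, for miR-299a-3p but not for miR-134-5p, with 819 and 870.4 CPM. Lower members were interspersed: miR-380-3p had 338 and 349.9 against 8.59 and 13.1 CPM and miR-668-3p, next to miR-134, 408 and 379 against 8.59 and 17.4 CPM. Of 10 neighbouring pairs in the cluster with both partners called, 4 differed in opposite directions.

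**Figure D5:**
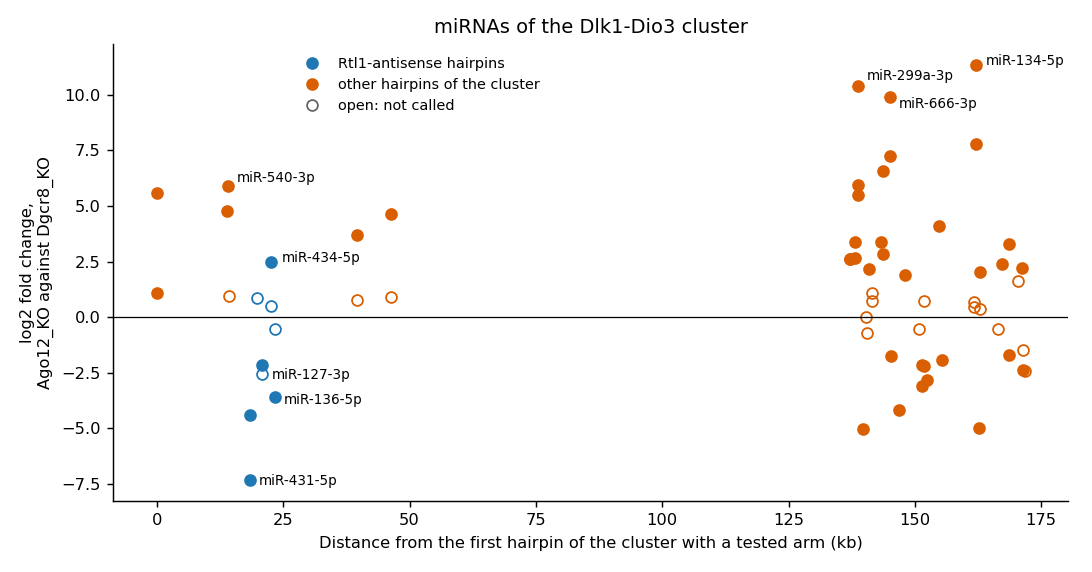
log2 fold change of each of the 63 tested arms of the Dlk1-Dio3 cluster, Ago12_KO against Dgcr8_KO, by distance in kb from the first hairpin with a tested arm; filled points were called by edgeR, open points were not. Hairpins antisense to Rtl1 include miR-431-5p at -7.32, and the distal block holds both higher arms such as miR-134-5p and lower arms such as miR-380-3p.

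By abundance, the leading entries of Dgcr8_KO were miR-182-5p (19.7% ± 0.58, SD, n = 2), miR-127-3p (17.9% ± 0.37) and miR-295-3p (6.01% ± 0.21). Those of Ago12_KO were miR-92a-3p (15.4% ± 2.7), miR-182-5p (14.2% ± 3.8) and miR-92a-1-5p (6.45% ± 5.5). WT began with miR-92a-3p, miR-182-5p and miR-295-3p. miR-6539, next in Ago12_KO, had 10489 and 10779 CPM in Dgcr8_KO and 38029 and 51576 CPM in Ago12_KO and only 557 and 582 CPM in WT. miR-5126, next in Dgcr8_KO, had 46798 and 43516 against 6083 and 5567 CPM, and its call as lower was lost without either Ago12_KO library; in WT it had 1194 and 73.1 CPM.

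Markers of other cell types were also measured. Blood markers held 0.633% and 0.626% of the counts in Dgcr8_KO and 0.976% and 1.23% in Ago12_KO, so both Ago12_KO libraries were higher, with 3 arms higher and 2 lower of 9, or 1 lower without Dgcr8_KO library 1 or without Ago12_KO library 1. Fibroblast or feeder markers held 0.33% and 0.318% against 0.177% and 0.34%, so the groups overlapped, with 2 higher and 2 lower of 6. That count depended on the libraries fitted: it was 4 higher and 0 lower of 8 without Dgcr8_KO library 1, and with any other library left out 3 or 4 were higher and 1 to 3 lower of 7 or 8. Neural markers held 0.206% and 0.179% against 0.211% and 0.188% and overlapped too, with 4 higher and 1 lower of 9. They had 2 higher of 10 without Dgcr8_KO library 1, 2 lower without Dgcr8_KO library 2 or Ago12_KO library 1, and 2 higher and 2 lower with TMM factors. Muscle markers held 0.00829% and 0.00685% against 0.00601% and 0.0061%, with 1 higher and 1 lower of 2, or 0 higher without Dgcr8_KO library 2 by edgeR. The liver, gut and endoderm list had 2 higher of 3, or 1 with TMM factors and without any 1 library of Dgcr8_KO or WT or Ago12_KO library 1, and held 0.019% and 0.0223% in Dgcr8_KO against 0.684% and 1.18% in Ago12_KO. That difference was miR-192-5p (chr19:6264844-6264932, plus strand), an epithelial miRNA with 17.3 and 29.4 CPM in Dgcr8_KO and 6564 and 11451 CPM in Ago12_KO (edgeR log2 fold change 8.54 with an SE of 0.56, adjusted p = 8.70e-07) and 1412 and 1337 CPM in WT. miR-194-5p, known from the same tissues, was not called at 86.3 and 124.8 against 45.8 and 113 CPM. Its log2 fold change ranged from -1.22 to 0.083 over the settings tried, so it could also lie on the lower side. miR-122, which defines liver, was not among the tested entries. The part of these cell types in the other results was not tested.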

How the data were processed

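Small RNA libraries (TruSeq, from 1 ug of total RNA, HiSeq2000, per the labels' protocols and the design text) were deposited by the authors as 1 table of whole-number counts per mature miRNA for 10 samples. Bowtie and the mm10 build are named in the submitters' processing notes; which miRBase release was counted, and how reads with several matches were treated, is not given in the sources used here. From the counts, levels were computed as CPM, counts scaled to a column total of 1000000. All 10 libraries were fitted with group means in edgeR 4.0.16 (quasi-likelihood, column totals as library sizes, 5 residual degrees of freedom) after filterByExpr (minimum count 10, or 38.54 CPM), with Benjamini-Hochberg adjustment; SE is the fold change divided by the root of F. Arm ratios, log2 of counts plus 0.5, were fitted with limma 3.58.1 over WT and the 2 mutants (3 residual degrees of freedom) for hairpins whose arms each averaged 20 counts or more over the mutant libraries. An entry with no count in a group is given a bound from 3 counts over the group, and one with 1 to 3 counts a ratio with its exact 95% interval. The minor arm needed 20 WT counts per hairpin. Contexts come from GENCODE M21 (GRCm38, the assembly also called mm10). DESeq2 1.42.0, other scalings, filters, sets of libraries, a replicate block and leaving out each library were tried. In simulated counts over 419 tested entries, edgeR recovered 37.9%, 86.9% and 89.8% of 2-, 4- and 8-fold changes and called 1.7% of unchanged entries. Over 74 hairpins, simulated with the same noise in every hairpin and group, limma recovered 92% of 4-fold changes in arm ratio, counting calls in either direction. It called 8.2% of unchanged hairpins.

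The members and lists were chosen with earlier results of these data known. Named miRNAs were the 10 highest and 10 lowest called entries with at least 100 CPM in the higher group, the 3 most abundant of each list, the 5 most abundant of each mutant and the 5 hairpins with the largest arm change each way; other names, among them same-seed and neighbouring miRNAs and minor arms, were chosen after their values were seen. No list was tested as a set.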

Additional observations from a re-analysis of the deposited data

How the results depend on the processing

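Over all alternatives, 181 to 257 entries were higher and 131 to 198 lower in Ago12_KO than in Dgcr8_KO, against 220 and 153. TMM factors gave 195 and 168. A replicate block gave 212 higher and 150 lower entries, and 20 and 31 hairpins with a higher and lower 5p to 3p ratio; across entries the differences between replicates 1 and 2 of the mutants had r = 0.0036, so the numbers do not pair the libraries. Choosing hairpins by WT counts, an alternative chosen after seeing the data, gave 43 with a higher 5p to 3p ratio, against 21, and 16 that moved to the arm with more WT counts, against 5; leaving out 1 library gave 4 to 8 of the latter. The log2 ratio of minor-arm shares, 3.31, was 2.28 without miR-92a and 2.10 with a 2-fold definition of the minor arm, both chosen after seeing the data, and 2.63 to 3.76 with 1 library left out. The direction of 3 small list shares turned: the log2 ratio with 1 library left out ranged from -1.049 to 0.1066 for let-7 (above 0 without Dgcr8_KO library 1), from -0.8686 to 0.07154 for fibroblast markers (above 0 without Ago12_KO library 1) and from -0.04463 to 0.1579 for neural markers (below 0 without Dgcr8_KO library 2 or Ago12_KO library 1), and was -0.05477 for neural markers when totals left out entries that look like fragments of other RNAs. The cause was not tested. Of 3077 values of 140 named miRNAs, 2947 kept their direction and call, 75 lost and 55 gained a call, and 0 reversed. Depth limits entries near the floors of 4.3 and 5.18 CPM.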
